A study of Homo sapiens with 12 samples.

Results

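Cadherins are calcium-dependent adhesion molecules of the cell surface, and 88 of the 56609 gene symbols in the count table named a cadherin (CDH) or protocadherin (PCDH). They were chosen by symbol alone: CDH or PCDH followed by a number, or PCDH followed by A, B, GA, GB, GC or AC and a number. The set holds 54 members of the alpha, beta and gamma protocadherin clusters and 34 genes outside these clusters, called single genes here. Low-count filtering left 76 for testing: 22 of the 34 single genes and all 54 clustered genes.

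The cells were A375, an established human malignant melanoma line, with MAPKAPK2 (the kinase MK2) intact or knocked out with CRISPR/Cas9. Wild-type and knockout cells received either 500 nM JQ1, an inhibitor of the bromodomain and extra-terminal (BET) chromatin readers, or the solvent DMSO, for 48 h. This gave 4 groups of 3 replicates: wild type in DMSO, wild type in JQ1, knockout in DMSO and knockout in JQ1, and all 4 shared the same line and medium. The study asked how loss of MAPKAPK2 changes the response to BET inhibition. The labels do not say whether the knockout cells were 1 clone or whether replicates came from separate cultures, so p-values measure only the spread between these samples. RNA came from unsorted cultures of 1 line, and fewer cells expressing a gene cannot be told apart from less RNA per cell.

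Libraries held 25316899 to 34594295 estimated counts, of which 23356 to 35269 came from the 88 genes. MAPKAPK2 itself averaged 89.6 ± 2.20 CPM (counts per 1000000; SD, n = 3) in wild-type DMSO and 12.4 ± 1.15 in knockout DMSO, and 117 ± 4.31 and 14.4 ± 1.61 in JQ1. The third knockout library in JQ1 stood apart. A chi-square of its counts against its 2 fellow replicates was 27.9 and 29.5 times the degrees of freedom, against 3.50 to 8.04 for all other replicate pairs. Counts of calls for JQ1 in the knockout and for the genotypes under JQ1 rest on it, and most of those counted by group are also given without it. Overlaps between contrasts, counts at an unadjusted p and the split by promoter match are given only with it. Of the melanocyte lineage markers, SOX10 averaged 437 to 563 CPM and MITF 28.8 to 43.1 CPM in the 4 groups. The pigment enzyme genes TYR and DCT were too low to test, and PMEL and MLANA did not average above 1.18 CPM. The leukocyte markers PTPRC, CD3E and CD14 and the epithelial EPCAM and KRT5 were also too low to test. The other epithelial genes listed were tested: KRT18 averaged 125 to 140 CPM and KRT14 0.207 to 1.86 CPM in the 4 groups.

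Classical cadherins, of types I and II, join like cells through their outer domains and bind catenins, which link them to actin, with their cytoplasmic tails. Loss of E-cadherin (CDH1) and gain of N-cadherin (CDH2) is a known switch as melanocytes become melanoma cells. Delta protocadherins are single genes with longer cytoplasmic tails, studied mostly in the nervous system. The clustered protocadherins lie in tandem on chromosome 5. In neurons each variable exon has its own promoter, the choice among promoters involves CTCF and cohesin, and the resulting mix of isoforms marks the cell's surface.

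Compared per kilobase of the longest transcript, CDH2 had the highest level of the 88 genes in wild-type DMSO, at 33.6 ± 0.52 CPM per kb (SD, n = 3). PCDHGC3 followed at 23.9 ± 0.94 and T-cadherin (CDH13), which is held by a lipid anchor and lacks a cytoplasmic tail, at 16.3 ± 0.82 CPM per kb. PCDH1 came next at 8.25 ± 0.18, and then CDH19 at 6.16 ± 0.068 and PCDHB5 at 6.10 ± 0.12 CPM per kb. The last 2 did not differ beyond their spread. CDH1, CDH9 and CDH16 had 0 counts in all 12 libraries, which allows up to 0.00829 CPM over the pooled 362268207 counts, as far as counting error goes. The cells thus carried N-cadherin RNA and no detected E-cadherin RNA in any group. Endothelial cadherin (CDH5) did not exceed 0.248 CPM and CDH11 did not exceed 0.467 CPM in any library, and neither was tested. Also too low to test were CDH4, CDH15, CDH17, CDH20, CDH22, CDH26 and PCDH8.

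**Figure D1:**
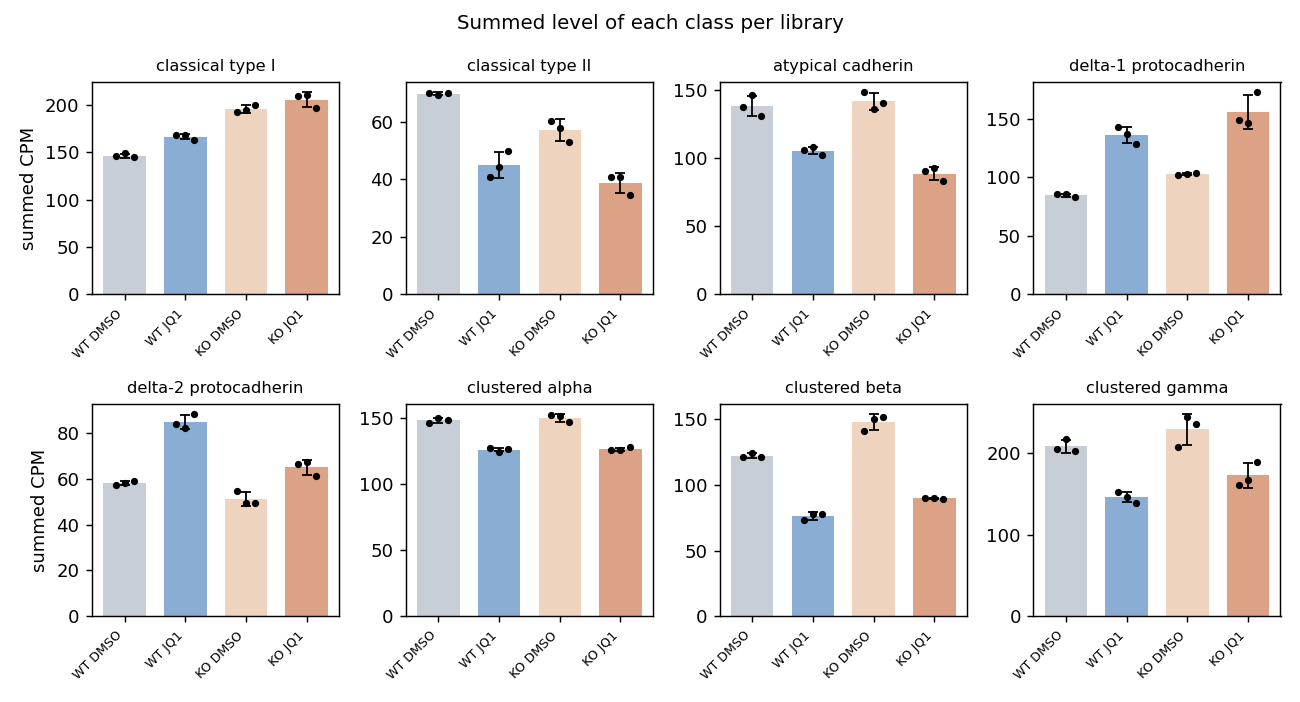
Summed CPM of all genes of a class (y axis, from 0) in the 4 groups (x axis); points are the 3 libraries, bars their mean and error bars the SD. Beta and gamma sums are lower in JQ1 than in DMSO in both genotypes, and the delta-1 sums are higher.

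JQ1 lowered most of the clustered protocadherins in both genotypes. In wild-type cells 35 of the 54 were lower, 0 were higher (all members, 43 lower and 6 higher of 76), and the median log2 fold change was -0.57. In the knockout 37 were lower and 2 higher (all members, 44 lower and 7 higher), with a median of -0.66. Across all 21698 genes tested the medians were -0.03 and -0.00, and 16.2% and 17.8% of genes were called lower at an adjusted p under 0.05 (edgeR quasi-likelihood test, Benjamini-Hochberg). In either direction 33.1% and 34.4% of all genes were called, against 49 and 51 of the 76 members. In wild-type cells 1 clustered gene had a higher fitted value at an unadjusted p under 0.05. DESeq2 called 0 clustered genes higher there and limma on the authors' normalized signal called 1. Without the third knockout JQ1 library, 36 clustered genes were lower and 1 higher in the knockout (all members, 41 lower and 6 higher of 77). The wild-type and knockout responses share no library. In both, 30 clustered genes were called lower, which is 85.7% of those called in wild type and 76.9% of those called in the knockout. The same overlap over all genes tested was not computed, so these shares have no background to be read against. The call held under every alternative run for 24 of the clustered genes called in wild type and 27 of those called in the knockout.

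The beta and gamma clusters carried most of these calls. In wild type 13 of 16 beta genes fell (median -0.69), 17 of 22 gamma genes fell (median -0.77) and 5 of 16 alpha genes fell (median -0.14). In the knockout the counts were 13 beta genes, 18 gamma genes and 6 alpha genes, with medians of -0.79, -0.74 and -0.35, while 2 alpha genes rose. Without the third knockout JQ1 library 12 beta, 17 gamma and 7 alpha genes fell and 1 alpha gene rose. Summed over the cluster, beta RNA was 121, 125 and 121 CPM in the wild-type DMSO libraries and 72.9, 78.2 and 77.8 CPM in JQ1. In the knockout it was 141, 151 and 152 CPM in DMSO and 90.1, 90.2 and 89.5 CPM in JQ1. The groups did not overlap in either genotype, and the JQ1 means were 62.4% and 60.9% of the DMSO means. The alpha sums moved less, to 85.0% and 84.2%. These sums were not tested; they bear on the class as a whole because reads shared between neighbours stay inside the sum.

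That sharing limits what can be said of single clustered genes. Alpha variable exons are spliced to the same 3 constant exons, and gamma exons likewise. In the GENCODE 29 transcripts the share of 31-base words that a gene has in common with another of the 88 genes had a median of 56.0% in alpha (24.9% to 100%) and 44.9% in gamma (33.3% to 73.4%). Beta genes, which have no shared constant exons, had a median of 20.02% (0.465% to 56.1%). Single genes did not exceed 0.996%. Values of a single alpha, beta or gamma gene are therefore uncertain where the authors' counting could split reads among them. PCDHA14, a transcribed pseudogene that shares 100% of its words, cannot be separated from its neighbours.

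The clusters occupy chr5:140786136-141012347 (alpha), chr5:141051135-141249365 (beta) and chr5:141330571-141512981 (gamma) on GRCh38 (GENCODE 29), a stretch of 727 kb. Upstream of the start sites lies a conserved element known to bind CTCF, built around the letters CGCT. RefSeq's promoter windows (GRCh38.p14, 250 bases before to 50 after each start, 300 in all) covered 68 of the 88 genes, 47 of them clustered. The following upstream stretches, all on the plus strand and read 5′ to 3′, are shown because they let the element be compared between genes that responded differently to JQ1. The capitals mark the match to TGNCGCT, a pattern chosen after the windows had been read.
PCDHA6, chr5:140827874-140827952: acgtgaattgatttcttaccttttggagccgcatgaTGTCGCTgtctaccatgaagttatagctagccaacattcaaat
PCDHA7, chr5:140834149-140834227: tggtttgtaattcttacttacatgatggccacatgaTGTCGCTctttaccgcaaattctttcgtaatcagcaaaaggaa
PCDHA10, chr5:140855818-140855896: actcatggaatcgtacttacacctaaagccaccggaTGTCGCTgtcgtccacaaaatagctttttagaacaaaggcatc
PCDHB7, chr5:141172543-141172621: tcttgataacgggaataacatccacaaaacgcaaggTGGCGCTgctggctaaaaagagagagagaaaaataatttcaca
PCDHB15, chr5:141245291-141245369: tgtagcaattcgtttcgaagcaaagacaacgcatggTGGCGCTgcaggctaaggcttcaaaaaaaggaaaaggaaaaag
PCDHGA3, chr5:141343744-141343822: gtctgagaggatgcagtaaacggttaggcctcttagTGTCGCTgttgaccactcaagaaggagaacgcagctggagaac
PCDHGC3, chr5:141475857-141475935: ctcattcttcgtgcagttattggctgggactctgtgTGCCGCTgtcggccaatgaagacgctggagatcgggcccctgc

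On the gene's own strand TGNCGCT was found in at least 1 window of 30 of the 47 clustered genes: 10 of 13 alpha, 13 of 14 beta and 7 of 20 gamma. It was found in 3 of 21 single genes and in 5.82% of all 35116 windows. Some genes had 2 or 3 windows and were counted once, so shares of genes and of windows differ in unit. With either strand counted TGNCGCT was in 32 of the 47 and in 10.9% of all windows. The shorter CGCT, which TGNCGCT contains, was in 46 of the 47 on either strand but also in 70.0% of all windows. The E-box CAGGTG, a site of repressors of E-cadherin, was in 4 of the 47 and in 20.6% of all windows. Clustered genes with the gene-strand TGNCGCT fell in JQ1 in 21 of 30 cases in wild type and 20 of 30 in the knockout, with medians of -0.56 and -0.62. Of those without it 10 of 17 and 13 of 17 fell, with medians of -0.53 and -0.65. The split is uneven between clusters, which differ in their response to JQ1, and it was not made within each cluster. It therefore cannot separate the match from the cluster. A match describes these letters only.

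**Figure D2:**
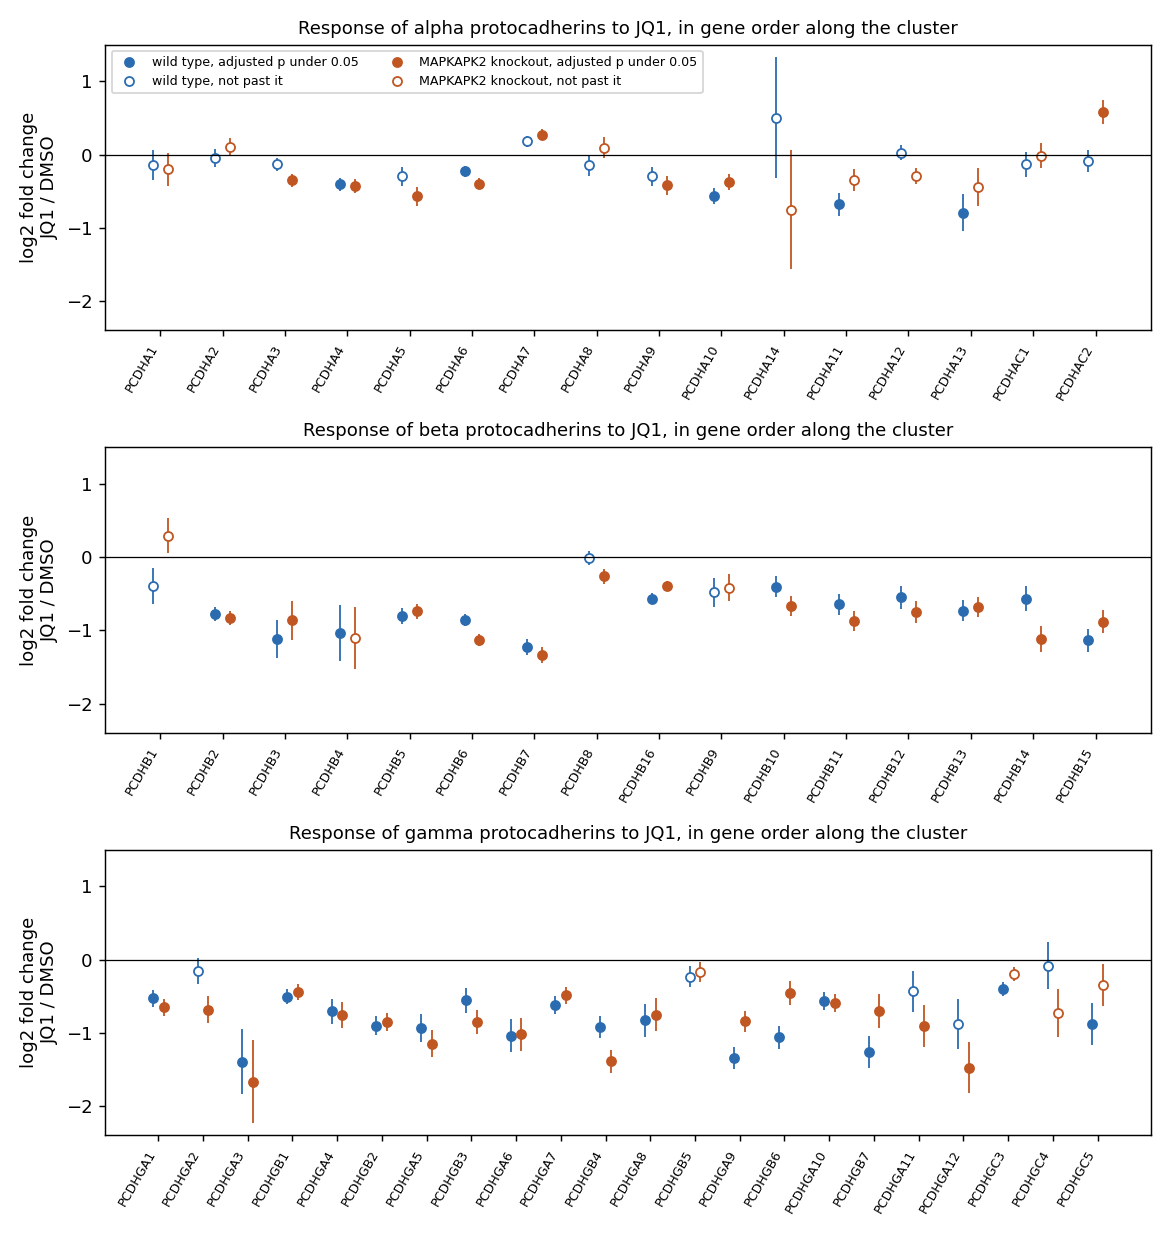
Log2 fold change of JQ1 over DMSO (y axis; error bars, SE) for each clustered protocadherin in gene order from the start to the end of its cluster (x axis), in wild type (blue) and knockout (orange); filled points have an adjusted p under 0.05. The beta and gamma points lie mostly below 0 in both genotypes, while the alpha points lie nearer to 0.

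PCDHB7 gave a clear example of the beta response. Its libraries read 6.17, 6.73 and 7.01 CPM in wild-type DMSO and 2.67, 3.08 and 2.78 CPM in JQ1. In the knockout they read 8.85, 9.85 and 9.79 CPM in DMSO and 3.92, 3.77 and 3.55 CPM in JQ1. Every JQ1 library was below every DMSO library of its genotype, with log2 fold changes of -1.22 (SE 0.11, adjusted p = 1.27e-06) and -1.34 (SE 0.11, adjusted p = 3.17e-07). PCDHB15 fell by 1.13 (SE 0.16) and 0.88 (SE 0.15) on the log2 scale and PCDHB3 by 1.12 (SE 0.26) and 0.87 (SE 0.26). PCDHB5, the most abundant beta gene, read 21.3, 20.5 and 20.6 CPM in wild-type DMSO and 10.8, 11.6 and 13.3 CPM in JQ1. It fell by 0.81 in wild type and by 0.74 in the knockout. In the knockout PCDHB6 (-1.13, SE 0.08) and PCDHB14 (-1.12, SE 0.18) were also among the 10 largest falls. PCDHB8 differed from this pattern: its wild-type values were 7.45, 7.37 and 8.22 CPM in DMSO and 6.97, 7.98 and 7.93 CPM in JQ1, which overlap. In the knockout its fall of 0.27 (adjusted p = 0.0457) was lost under 16 alternatives. The remaining beta genes called lower in both genotypes were PCDHB2, PCDHB10, PCDHB11, PCDHB12, PCDHB13 and PCDHB16. Of the calls in wild type, that of PCDHB10 was lost under 10 alternatives (adjusted p = 0.109 with DESeq2), that of PCDHB14 under 7 and that of PCDHB12 under 3. In the knockout that of PCDHB3 was lost without the second DMSO or the third JQ1 library (adjusted p = 0.0925 and 0.0812). PCDHB4 was called in wild type only, with an adjusted p of 0.049, and lost under 14 alternatives.

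The gamma cluster mixes GA and GB variable genes with the GC genes at its end. PCDHGA9 read 3.49, 3.58 and 3.66 CPM in wild-type DMSO and 1.35, 1.26 and 1.597 CPM in JQ1, and 3.85, 4.67 and 4.88 against 2.59, 2.19 and 2.66 CPM in the knockout. The groups did not overlap in either genotype, and the falls were 1.34 (SE 0.15) and 0.84 (SE 0.14) on the log2 scale. PCDHGB4 fell by 0.92 (SE 0.15) and 1.39 (SE 0.16), and PCDHGB7 by 1.26 (SE 0.22) and 0.70 (SE 0.23). Also called lower in both genotypes were PCDHGA1, PCDHGA4 to PCDHGA8, PCDHGA10, PCDHGB1 to PCDHGB3 and PCDHGB6. The knockout call of PCDHGB6 was lost under 15 of 20 alternatives (adjusted p = 0.122 with DESeq2), and those of PCDHGB7 under 5 and PCDHGA8 under 3. In wild type the calls of PCDHGB3 and PCDHGA8 were lost under 4 and 1. Low counts widened the error of PCDHGA3, which fell by 1.39 (SE 0.44) and 1.67 (SE 0.57), calls that were lost under 6 and 4 alternatives. PCDHGA12 was called in the knockout only (-1.48, SE 0.35). PCDHGC3, which unlike the other gamma genes is known to be expressed in most cell types, made up 49.4% to 62.1% of the gamma sum. Its levels were 108, 117 and 114 CPM in wild-type DMSO and 89.3, 88.95 and 77.2 CPM in JQ1, a fall of 0.41 (SE 0.09, adjusted p = 0.00403). In the knockout they were 103, 127 and 126 CPM in DMSO and 96.9, 95.8 and 118 CPM in JQ1, where the third library is the one that stood apart, the groups overlapped and the log2 fold change of -0.19 (SE 0.09) had an adjusted p of 0.13. Without that library PCDHGC3 was called lower in the knockout (-0.30, adjusted p = 0.0136), as it was with library totals as the scale (-0.31, adjusted p = 0.0134) and without the first knockout DMSO library (-0.29, adjusted p = 0.0239). The whole gamma sum in JQ1 was 70.0% of DMSO in wild type and 75.4% in the knockout. Without PCDHGC3 the gamma sum in JQ1 was 63.6% of DMSO in wild type and 62.6% in the knockout.

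Alpha genes were more mixed. PCDHA6, the most abundant of them, read 29.03, 25.8 and 29.1 CPM in wild-type DMSO and 23.2, 25.8 and 22.7 CPM in JQ1. These ranges overlap, although the fit called a fall of 0.23 (SE 0.07, adjusted p = 0.0249), a call that was lost under 5 of 20 alternatives: without the low-count filter (adjusted p = 0.104), or without the first or the third DMSO library (0.107 each) or the first or the third JQ1 library (0.0963 and 0.101). In the knockout PCDHA6 fell by 0.40 (SE 0.07, adjusted p = 0.000629), with no overlap. PCDHA10 and PCDHA4 were also called lower in both genotypes, PCDHA11 and PCDHA13 in wild type, and PCDHA3, PCDHA5 and PCDHA9 in the knockout. PCDHA7 went the other way. It read 12.6, 13.4 and 12.8 CPM in knockout DMSO and 14.96, 16.03 and 15.7 CPM in JQ1, a rise of 0.27 (SE 0.07, adjusted p = 0.0108). PCDHAC2, the last alpha gene, rose by 0.58 (SE 0.16, adjusted p = 0.0116) from 3.46, 2.54 and 3.19 to 4.72, 3.57 and 5.38 CPM in the knockout. Neither rise was called when only the groups compared entered the fit. The rise of PCDHA7 was also lost with library totals or without the filter, and that of PCDHAC2 with the authors' factors, with limma, and without the second DMSO or the third JQ1 library. Of the other alpha calls, that of PCDHA10 was lost under 2 alternatives in wild type and 3 in the knockout, that of PCDHA13 under 3 and that of PCDHA9 under 4.

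Other genes in or near the same stretch of chromosome 5 were mostly higher or without a call in JQ1. Of all genes tested, 16.9% were called higher and 16.2% lower in wild type, and 16.7% and 17.8% in the knockout. In either direction the shares were 33.1% and 34.4%. Within 500 kb of the clusters, 23 protein-coding genes that are not cadherins were tested, 22 of them in the flanks. Of the 23, 9 were higher and 0 lower with JQ1 in wild type (median 0.20). In the knockout 9 were higher and 1 lower (median 0.19). At an unadjusted p under 0.05, 12 were higher and 0 lower in wild type and 10 higher and 2 lower in the knockout. Without the third knockout JQ1 library 8 were higher and 1 lower there, with a median of 0.02. TAF7, a subunit of the transcription factor TFIID that lies between the beta and gamma clusters, had log2 fold changes of 0.10 (SE 0.07, adjusted p = 0.32) and 0.19 (SE 0.07, adjusted p = 0.049). HBEGF, a growth factor gene of the flank named here after its values were seen, rose by 1.39 and 1.46.

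The delta protocadherins moved in the opposite direction. With JQ1, 4 of the 7 tested delta genes were higher and 1 lower in wild type, and 5 were higher and 1 lower in the knockout, against 16.9% and 16.7% of all genes called higher. The same 4 genes, PCDH1, PCDH7, PCDH10 and PCDH19, rose in both genotypes, and PCDH18 fell in both. PCDH19 passed the low-count filter through its JQ1 groups, where it was highest, so its rises lean on how it came to be tested. The medians were 0.86 and 0.70 on the log2 scale. Without the third knockout JQ1 library the knockout counts were also 5 and 1.

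PCDH1, a delta-1 protocadherin of airway and other epithelia, lies on the same arm beyond the gamma cluster, at chr5:141853111-141879246 on the minus strand. It read 38.7, 40.4 and 39.4 CPM in wild-type DMSO and 88.9, 84.8 and 69.1 CPM in JQ1. Knockout libraries read 42.7, 44.0 and 47.1 CPM in DMSO and 81.6, 83.0 and 115 CPM in JQ1. Every JQ1 library was above every DMSO library, with log2 fold changes of 1.03 (SE 0.12, adjusted p = 1.20e-05) and 1.07 (SE 0.12, adjusted p = 7.55e-06). PCDH7, a protocadherin known to bind the SET protein, spans 426 kb of chromosome 4. It rose from 6.08, 6.27 and 5.28 CPM to 16.6, 14.2 and 15.6 CPM in wild type and from 6.12, 7.31 and 6.95 CPM to 16.3, 16.9 and 20.9 CPM in the knockout. The log2 fold changes were 1.40 (SE 0.12) and 1.41 (SE 0.12), and their difference was 0.01 (SE 0.17). PCDH9, the remaining delta-1 gene, showed overlapping groups: 41.0, 38.8 and 38.7 CPM against 37.7, 37.7 and 44.1 CPM in wild type, and 53.5, 51.4 and 50.1 CPM against 50.9, 46.7 and 36.7 CPM in the knockout. The log2 fold changes were 0.01 (SE 0.10, adjusted p = 0.946) and -0.21 (SE 0.10, adjusted p = 0.124). In the knockout PCDH9 was called lower under 4 alternatives: library totals (-0.32, adjusted p = 0.0316), the authors' factors (-0.28, adjusted p = 0.0295), limma (-0.29, adjusted p = 0.0299) and without the first JQ1 library (-0.31, adjusted p = 0.0277).

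Among the delta-2 genes, PCDH10 had the tightest replicates. This protocadherin recruits actin regulators of the WAVE complex to cell contacts. It read 33.7, 35.6 and 36.1 CPM in wild-type DMSO, 64.4, 63.6 and 63.8 CPM in JQ1, 25.2, 24.3 and 23.6 CPM in knockout DMSO and 39.8, 39.97 and 39.1 CPM in knockout JQ1. No 2 of the 4 groups overlapped. JQ1 raised it by 0.86 (SE 0.06, adjusted p = 4.36e-08) and 0.70 (SE 0.06, adjusted p = 3.89e-07). PCDH19, an X-linked gene known from an epilepsy, rose by 1.85 (SE 0.43) and 1.74 (SE 0.41), but from 0.110 to 0.343 CPM in the 6 DMSO libraries to 0.408 to 1.08 CPM in the 6 JQ1 libraries. PCDH17 rose by 0.52 (SE 0.13, adjusted p = 0.00614) in the knockout, where DMSO libraries read 11.3, 10.03 and 12.1 CPM and JQ1 libraries 15.7, 18.4 and 14.1 CPM. PCDH18 fell by 0.49 (SE 0.14) in wild type and 0.85 (SE 0.15) in the knockout. The wild-type PCDH18 call was lost when the first DMSO library (adjusted p = 0.0745) or the first or second JQ1 library (adjusted p = 0.0639 and 0.0746) was left out.

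PCDH12 and PCDH20 belong to neither delta group. PCDH20 read 5.32, 5.05 and 5.34 CPM in knockout DMSO and 4.19, 4.26 and 4.24 CPM in JQ1. Its fall of 0.31 (SE 0.11) there had an adjusted p of 0.0476 and was lost under 16 alternatives. In wild type the log2 fold change was 0.25 (SE 0.11, adjusted p = 0.0957).

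**Figure D3:**
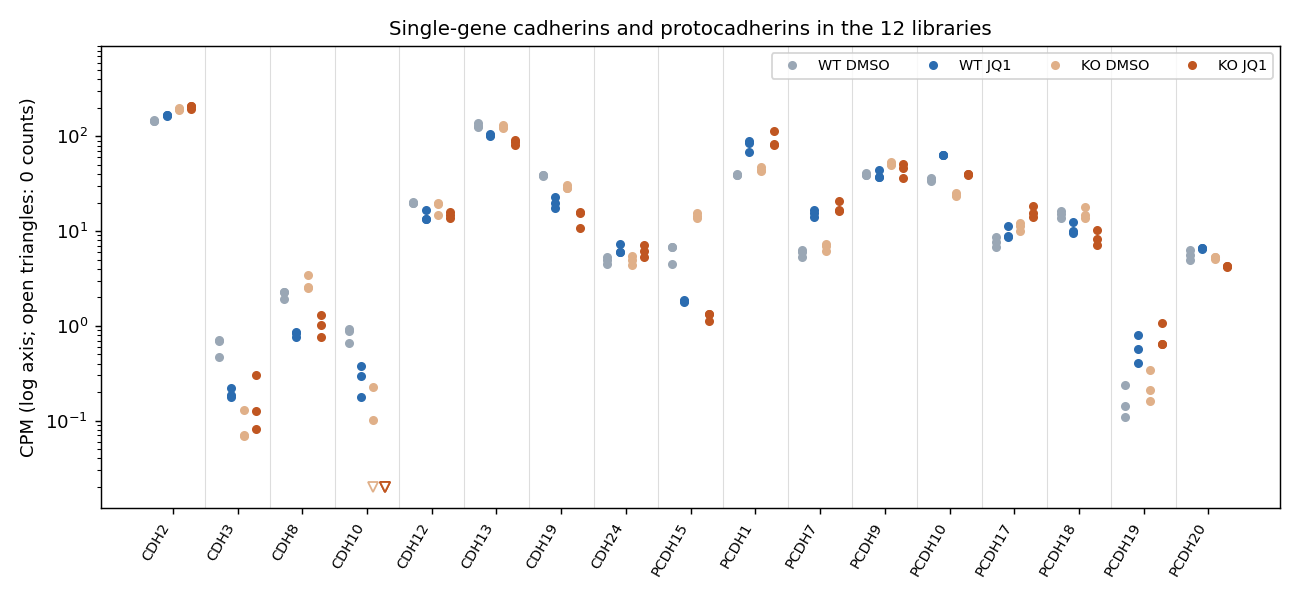
CPM on a log axis (y axis) of 17 single-gene cadherins and protocadherins (x axis); each point is a library, coloured by group, and open triangles stand for 0 counts. PCDH1, PCDH7 and PCDH10 are higher in JQ1, CDH8, CDH19 and PCDH15 are lower, and CDH10 has only triangles in knockout JQ1.

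The classical cadherins did not share a direction. In wild type 2 of the 10 tested rose and 5 fell with JQ1, and in the knockout 0 rose and 3 fell. The called shares were thus 70% and 30%, against 33.1% and 34.4% of all genes tested. The wild-type falls include CDH3 and CDH10, which passed the low-count filter through wild-type DMSO, the group where they were highest. These falls therefore lean on how the genes came to be tested. In the knockout 1 classical gene had a higher fitted value at an unadjusted p under 0.05. Without the third knockout JQ1 library 0 of 11 rose and 2 fell there. N-cadherin (CDH2, on the minus strand of chromosome 18, 27950966 to 28177446) read 145, 148 and 144 CPM in wild-type DMSO and 168, 168 and 163 CPM in JQ1. In the knockout it read 192, 195 and 200 CPM in DMSO and 209, 210 and 196 CPM in JQ1. The wild-type groups did not overlap and differed by 0.19 (SE 0.05, adjusted p = 0.00705), which was lost when libraries were scaled by their totals alone (0.06, adjusted p = 0.418). The knockout groups overlapped (0.07, SE 0.05, adjusted p = 0.29). Type I P-cadherin (CDH3) was scarce, at 0.686, 0.708 and 0.467 CPM in wild-type DMSO and 0.220, 0.186 and 0.177 CPM in JQ1, a fall of 1.64 (SE 0.42, adjusted p = 0.00683). Its knockout levels, 0.0687 to 0.128 CPM in DMSO and 0.0812 to 0.305 CPM in JQ1, overlapped.

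Type II cadherins fell in most calls. CDH19, known from glial precursors of the neural crest and from melanocytic cells, was the most abundant. It read 39.5, 38.6 and 39.0 CPM in wild-type DMSO and 17.6, 20.002 and 22.8 CPM in JQ1, and 30.4, 28.4 and 28.4 CPM against 15.7, 15.99 and 10.8 CPM in the knockout. No JQ1 library reached a DMSO library, with falls of 0.96 (SE 0.12, adjusted p = 2.70e-05) and 1.04 (SE 0.13, adjusted p = 1.46e-05). CDH8, a cadherin of cortical neurons, fell by 1.39 (SE 0.21) from 1.94, 2.30 and 2.25 to 0.848, 0.854 and 0.769 CPM in wild type and by 1.49 (SE 0.21) in the knockout. CDH12, another neuronal type II gene, fell by 0.44 (SE 0.11) in wild type. CDH24, which binds several catenins, rose by 0.39 (SE 0.14, adjusted p = 0.0421), a call that was lost under 9 alternatives.

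CDH10 reached 0 in a whole group. It read 0.656, 0.921 and 0.880 CPM in wild-type DMSO, 0.377, 0.297 and 0.177 CPM in wild-type JQ1, 0.224, 0.103 and 0 CPM in knockout DMSO and 0 in the 3 knockout JQ1 libraries. With a floor of 3 counts over the group, its level in knockout JQ1 was at least 3.10-fold lower than in knockout DMSO, which held 10 counts, and at least 7.72-fold lower than in wild-type JQ1, which held 26 counts. With CDH10 at this bound the median of the type II genes was -0.13 for JQ1 in the knockout. Its wild-type fall of 1.52 (SE 0.50, adjusted p = 0.0342) was lost under 8 of 19 alternatives: DESeq2 (adjusted p = 0.076), limma (0.198) and the omission of any 1 of the 6 libraries compared (0.0553 or more). The knockout call was lost under 6 of 18, among them the omission of any 1 JQ1 library.

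CDH13, PCDH15 and CDH23 were the atypical members that could be tested. T-cadherin (CDH13) read 130, 139 and 126 CPM in wild-type DMSO and 103, 105 and 99.9 CPM in JQ1, and 132, 122 and 126 CPM against 88.3, 90.6 and 81.0 CPM in the knockout. Both pairs of groups were apart, with falls of 0.36 (SE 0.06, adjusted p = 0.000329) and 0.55 (SE 0.06, adjusted p = 6.38e-06). PCDH15 and CDH23 together form the tip links of inner ear hair cells. PCDH15 spans 1825 kb of chromosome 10 (53802771 to 55627942, minus strand). It read 6.77, 6.73 and 4.51 CPM in wild-type DMSO and 1.82, 1.89 and 1.77 CPM in JQ1, a fall of 1.71 (SE 0.16, adjusted p = 1.58e-06). In the knockout it read 15.6, 13.6 and 14.5 CPM in DMSO and 1.33, 1.14 and 1.33 CPM in JQ1, a fall of 3.52 (SE 0.17, adjusted p = 1.40e-09). CDH23 stayed between 0.0641 and 1.19 CPM and was called by edgeR in no contrast. With limma on the authors' normalized signal it was called higher with JQ1 in the knockout (1.9, adjusted p = 0.0407).

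PCDH15 was the only member whose JQ1 response differed between genotypes. The difference was -1.81 (SE 0.24, adjusted p = 0.00838), in a contrast where 0.134% of all genes were called (0.0323% higher and 0.101% lower). The knockout was called higher than wild type in DMSO. In JQ1 it was lower in these libraries without a call (edgeR, -0.52, adjusted p = 0.123), and 0 of 20 alternatives gave one. With the authors' own normalization factors as offsets the difference of responses was -1.54 (adjusted p = 0.0827), and with limma on the authors' normalized signal -1.58 (adjusted p = 0.0535). Without the third knockout JQ1 library it was -1.85 (adjusted p = 0.00664). At an unadjusted p under 0.05 the contrast held 10 members, among them CDH3 (2.53, SE 0.72, adjusted p = 0.286) and PCDH20 (-0.55, SE 0.16, adjusted p = 0.273). Of the 54 clustered genes 0 were called by edgeR and 5 had an unadjusted p under 0.05, and DESeq2 called no member other than PCDH15. A p over the threshold does not show that the genotypes respond alike.

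Without drug, 18 members differed between knockout and wild type, 11 higher and 7 lower, where 7.92% of all genes were called (3.47% higher and 4.44% lower). CDH2 was higher by 0.42 (SE 0.05, adjusted p = 4.63e-05) and PCDH15 by 1.28 (SE 0.14, adjusted p = 2.71e-05). P-cadherin (CDH3) was lower (log2 fold change -2.72, SE 0.48, adjusted p = 0.00196), as were CDH10 (-2.82, SE 0.59, adjusted p = 0.00933), PCDH10 (-0.53, SE 0.06, adjusted p = 3.52e-05) and CDH19 (-0.43, SE 0.12, adjusted p = 0.0395). CDH3 (23, 20 and 17 counts) and CDH10 (22, 26 and 32 counts) passed the low-count filter through wild-type DMSO, where they were highest. Their falls against that group therefore lean on how they came to be tested. Of the delta genes, PCDH17 (0.55, SE 0.14) and PCDH9 (0.39, SE 0.10) were higher.

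Among the clustered genes 7 were higher and 3 lower in the knockout in DMSO. The 7 were all beta or gamma genes: PCDHB5, PCDHB7, PCDHB8, PCDHB12, PCDHGA1, PCDHGB2 and PCDHGB3. PCDHGB2 had the largest rise, from 3.99, 4.50 and 4.78 to 7.09, 7.83 and 8.004 CPM (0.79, SE 0.12, adjusted p = 0.000591). The 3 lower ones were alpha genes, PCDHA1 (-0.86, SE 0.21), PCDHAC2 (-0.82, SE 0.16) and PCDHA10 (-0.55, SE 0.11). With library totals alone as the scale, 3 clustered genes were higher and 3 lower. Calls of CDH2, CDH3, CDH10, PCDH10, PCDH15, PCDHA10, PCDHB7 and PCDHGB2 held under every alternative run, and those of the other genes were lost under at least 1. CDH3 and CDH10 were too low for the stricter filter and were not tested there. The count over all members fell to 10 without the third wild-type DMSO library and to 11 without the first or second, or without the first or the third knockout DMSO library.

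Under JQ1, 13 members differed between the genotypes, 6 higher and 7 lower in the knockout, against 8.57% of all genes (3.01% higher and 5.56% lower). CDH2 (0.31, SE 0.05, adjusted p = 0.000806), PCDH17 (0.74, SE 0.13), PCDHGB2 (0.84, SE 0.13) and PCDHB5 (0.46, SE 0.11) were again higher. PCDH10 (-0.69, SE 0.06, adjusted p = 1.77e-06), CDH19 (-0.51, SE 0.13), PCDHA1 (-0.92, SE 0.22) and CDH10 were again lower. These 8 genes were called in the same direction with and without drug, and the pair of contrasts shares no library. The matching overlap over all genes tested was not computed. PCDHGA9 (0.82, SE 0.16) and PCDHB16 (0.37, SE 0.08) were called higher only here, and PCDH20 (-0.65, SE 0.11), PCDHGA2 (-0.81, SE 0.19) and CDH13 (-0.24, SE 0.06) lower only here, without a called difference between the drug states. Calls of CDH2, CDH10, PCDH10, PCDH17, PCDH20, PCDHGA9 and PCDHGB2 held under every alternative run. CDH10 was too low to be tested with the stricter filter or with only the groups compared. Leaving out the third knockout JQ1 library gave 16 calls, 8 in each direction, and fitting only the groups compared gave 8 calls.

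**Figure D4:**
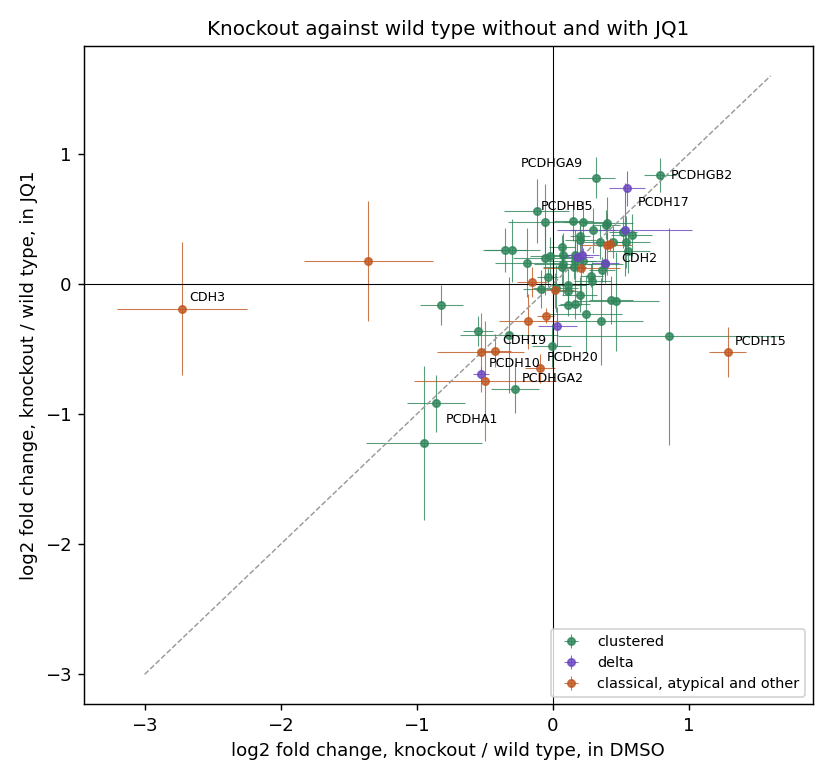
Log2 fold change of knockout over wild type in DMSO (x axis) and in JQ1 (y axis) for the tested members, with SE bars and a dashed line of equal values; CDH10 is left out because it has 0 counts in knockout JQ1. PCDHGB2, PCDH17 and CDH2 lie high on both axes and PCDHA1, PCDH10 and CDH19 low on both, while PCDH15 and CDH3 lie far from the line.

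Genes whose products work with cadherins moved in both directions. Catenins tie classical cadherins to actin. Of 8 tested catenin genes 4 were higher and 2 lower with JQ1 in wild type. In the knockout 2 were higher and 2 lower (3 and 2 without the third JQ1 library). Of all genes tested 33.1% were called in wild type and 34.4% in the knockout. Gamma-catenin (JUP, plakoglobin) fell by 0.79 and 1.35 and was lower in the knockout than in wild type under JQ1 (-1.15, adjusted p = 0.00253). Beta-catenin (CTNNB1) rose by 0.14 and 0.21. With library totals as the scale the median of all genes shifted by -0.13 in wild type and -0.12 in the knockout, so rises of this size are relative to that scale. Transcription factors that repress E-cadherin (SNAI, ZEB, TWIST and others) were lower in 3 of 8 and 5 of 8 cases (4 of 8 without the third knockout JQ1 library), with ZEB2 at -0.44 and -0.63. Of all genes tested 16.2% and 17.8% were called lower. CDH1 stayed at 0 counts throughout.

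Regulators of the protocadherin clusters included CTCF, cohesin, DNA methyltransferases, SMCHD1 and SETDB1. Of these 13 genes, 1 was higher and 5 lower with JQ1 in wild type. In the knockout 1 was higher and 6 lower (0 and 5 without the third JQ1 library). The called shares were 46.2% and 53.8%, against 33.1% and 34.4% of all genes tested. CTCF averaged 66.4 ± 0.80 CPM (SD, n = 3) in wild-type DMSO and 71.8 ± 2.66 in JQ1. In the knockout it averaged 69.0 ± 1.80 and 73.9 ± 1.68 CPM. The cohesin subunit STAG2 fell by 0.58 (adjusted p = 0.000457) and 0.71 (adjusted p = 7.12e-05), and RAD21 by 0.40 and 0.53. DNMT1 rose by 0.28 and 0.31, the knockout call being the one lost without the third JQ1 library. JUP, CTNNB1, STAG2, RAD21 and DNMT1 are named after their values were seen.

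More distant members of the superfamily also moved. FAT1, a giant protocadherin, rose with JQ1 by 0.71 and 0.67 and was higher in the knockout by 0.54 and 0.50. DCHS1, the ligand of FAT4, fell by 1.88 and 1.90, FAT3 by 1.29 and 0.94, and the synaptic calsyntenin CLSTN3 by 1.22 and 1.27. CELSR3, a seven-pass cadherin of planar polarity, was higher in the knockout by 1.00 in DMSO and 0.78 in JQ1. PCDHB18P, a pseudogene inside the beta cluster named after its values were seen, fell by 1.38 and 1.26. Over the 19 tested genes of this group, 5 were higher and 7 lower in wild type. In the knockout 3 were higher and 6 lower (4 and 7 without the third JQ1 library). The called shares were 63.2% and 47.4%, against 33.1% and 34.4% of all genes tested. Of the 7 genes of cadherin shedding (ADAM10, ADAM17 and the gamma-secretase subunits), PSEN2 rose with JQ1 by 0.58 and 0.57 and was lower in the knockout (-0.41 in DMSO and -0.42 in JQ1). Of the 7 tip-link partners of PCDH15, 3 could be tested, and with JQ1 0 were higher in either genotype. In wild type 1 was lower and in the knockout 2 were lower, with or without the third JQ1 library. Of all genes tested 16.2% and 17.8% were called lower. The myosin MYO7A fell by 1.82 and 1.79, from means of 0.974 and 0.965 CPM in DMSO. CIB2 fell by 1.90 in the knockout (-0.40, adjusted p = 0.361, in wild type) and was lower in the knockout than in wild type under JQ1 (-2.50, adjusted p = 0.00134). LHFPL5 was called in no contrast.

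Some markers of other cell types moved with JQ1. Of the 3 fibroblast markers, LUM fell by 2.92 and 2.80 on the log2 scale, DCN fell by 1.48 in wild type, and PDGFRA rose by 0.64 and 0.61. Their summed level was 10.4 to 11.98 CPM in wild-type DMSO, 10.2 to 12.7 in wild-type JQ1, 8.86 to 10.4 in knockout DMSO and 7.25 to 9.21 in knockout JQ1, and none was at 0 in all libraries. The melanocyte list summed to 501 to 516, 587 to 677, 460 to 535 and 560 to 766 CPM in the same order. SOX10, S100B and PMEL, 3 of its 5 tested genes, were called higher with JQ1 in both genotypes. Of all genes tested 16.9% and 16.7% were called higher. Without the third JQ1 library 2 of 6 tested genes of the melanocyte list were called higher in the knockout. Of the epithelial list (KRT18, KRT14, KRT5 and EPCAM), KRT14 fell by 1.32 and 2.53. The sum ran from 115 to 146 CPM over all libraries and was nearly all KRT18, which averaged 125 to 140 CPM in the 4 groups. Neuronal markers summed to 17.5 to 18.3, 23.2 to 27.3, 13.7 to 15.6 and 14.5 to 20.1 CPM, and SYT1 rose by 0.55 in wild type. The endothelial pair summed to at most 2.24 CPM and VWF fell in both genotypes. The part of these markers in the cadherin results was not tested.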

How the data were processed

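RNA was sequenced from 12 A375 samples in 4 groups of 3, grouped by their genotype and treatment labels. Titles call the samples without drug untreated while the treatment field gives DMSO, and the field was followed. Per the labels' protocols, total RNA was depleted of ribosomal RNA and made into directional libraries. The submitters' processing notes name Trim Galore, cutadapt, FastQC, MultiQC, kallisto, DESeq2 and GRCh38.p10, with no roles or versions; annotation release and strand setting are not given in the sources used here, so genes with overlapping or antisense partners are uncertain.

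Per gene symbol, estimated counts were deposited by the authors and were rounded here. In the deposited normalized signal each value is the rounded count over a factor that varies by gene and library, for 32828 genes, and was used only in alternatives.

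Low genes were removed with edgeR's filterByExpr, which left 21698 genes, libraries were scaled by TMM, and edgeR quasi-likelihood tests on all 12 libraries used a mean per group (edgeR 4.0.16, limma 3.58.1, R 4.3.3). The design had assumed raw counts, and rounding was the change needed. Benjamini-Hochberg adjustment covered all tested genes, at 0.05, in each of 5 contrasts. Standard errors are the log2 fold change over the root of F, with a prior count of 0.125; CPM are per 1000000 TMM-scaled counts. The scripts were tested on simulated data. Alternatives were DESeq2 (1.42.0), no or a stricter filter, library totals, the compared groups only, a replicate block, the authors' factors, limma on their signal (log2 with a pseudocount of 0.5) and leaving out each library.

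Members, classes and partner lists were chosen with earlier results of these data known. Named members passed the adjusted threshold in at least 1 contrast, with statistics for up to 10 rises and 10 falls each, or were CDH1, CDH2, CDH3, CDH5, CDH11, CDH13, CDH19, PCDH7, PCDH9, PCDH15, PCDHGC3 or the most abundant of a class; up to 5 called partner genes per contrast were named by smallest adjusted p. Same-numbered samples were not treated as paired. Their deviations correlated at -0.115 to 0.0786 over 18 pairs, against -0.136 to 0.106 over 36 pairs of different numbers. This check cannot show whether same-numbered samples were handled together.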

Additional observations from a re-analysis of the deposited data

Results flagged for a closer look

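PCDH15 responded to JQ1 differently in the 2 genotypes by a test of the difference itself. The difference of the log2 fold changes, knockout minus wild type, was -1.81 (SE 0.24, edgeR adjusted p = 0.00838), and the fall in JQ1 was seen in every library of both genotypes. The size kept its sign under all alternatives tried, from -1.91 to -1.54, and the adjusted p ran from 2.37e-08 to 0.0827.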

How the results depend on the processing

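Depth limits the members under about 1 CPM, such as CDH3, CDH10, PCDH19 and PCDHGA3, whose errors are wide. No called member changed sign under any alternative. With a replicate block, PCDH15's difference of JQ1 responses was -1.81 (adjusted p = 0.0227), and the block gave 47, 48, 14 and 13 called members for JQ1 in wild type, JQ1 in knockout, knockout in DMSO and knockout in JQ1, against 49, 51, 18 and 13 without it. Leaving out 1 library at a time, those counts ran from 39 to 51, 39 to 50, 10 to 19 and 10 to 16. The knockout count in JQ1 was 8 with only the groups compared, where the spread rests on fewer samples. The single call of the difference between JQ1 responses became 0 with the authors' factors and with limma on their signal; the cause was not tested. Of the tested members without a call, at least 1 alternative changed the sign of 8 of 27, 7 of 25, 14 of 58 and 19 of 63 in the same order and of 30 of 75 for the difference of responses, and gave a call to 10, 11, 4, 9 and 0. Among the members whose values were followed one by one, these uncalled values changed sign. PCDH9 in wild-type JQ1 was -0.00324 with the stricter filter and -0.12 with library totals, CDH2 in knockout JQ1 -0.0437 with library totals, and PCDH7's difference of responses -0.0091 with DESeq2 and -0.00648 without a filter. Leaving out a library moved these uncalled values across 0: PCDH9 for JQ1 in wild type from -0.0657 to 0.0527, PCDH20 for knockout in DMSO from -0.17 to 0.00637, CDH3 and PCDHA6 for knockout in JQ1 from -0.85 to 0.11 and from -0.0912 to 0.00425, and the differences of responses of CDH19 from -0.18 to 0.0793, PCDH1 from -0.15 to 0.12, PCDH7 from -0.11 to 0.0802 and PCDHB5 from -0.0164 to 0.17.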
